A study of Mus musculus with 4 samples.

Results

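The genes described here are 35 genes of the endoplasmic reticulum (ER) folding and secretory machinery, taken by their annotated symbol from the 17097 genes with a named probe set on the arrays. They comprise 11 lumenal chaperones and co-chaperones, 4 protein disulfide isomerases, 4 stress sensors and stress transcription factors, 7 genes of ER-associated degradation, 7 genes of targeting and translocation into the ER, and 2 subunits of the COPII coat. For each gene the probe set brightest on average over the 4 arrays was used, and all 35 passed the filter on dim genes, which kept genes with a mean of at least 4.45 log2 units. RNA from mouse colon adenoma organoids, 3D cultures of tumour epithelium on a C57BL/6 background, was measured on 4 Affymetrix arrays. The Apc null group (2 arrays) came from VillinCreERT2 Apc fl/fl organoids with Gata6 +/+, and the Gata6 null/Apc null group (2 arrays) from VillinCreERT2 Apc fl/fl organoids that were also Gata6 fl/fl. Deletion by the tamoxifen-inducible Cre is driven by the Villin promoter, which is active in intestinal epithelium, and loss of Apc, the Wnt pathway suppressor, is common to both groups, so there is no array with intact Apc. Batches A and B each contributed 1 array of both groups, and all organoids were grown for 7 days in medium with EGF at 50 ng/ml. What a batch letter stands for, and whether the replicates came from separate mice, is not given in the sources used here, so the p-values may measure only technical spread.

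Proteins that enter the secretory pathway are threaded into the ER through the Sec61 channel, folded there by Hsp70- and Hsp90-type chaperones, lectin chaperones and disulfide isomerases, and packed into COPII vesicles if they fold, or sent back to the cytosol for destruction if they do not. When unfolded proteins build up, the sensors IRE1, ATF6 and PERK start the unfolded protein response: IRE1 splices the mRNA of the transcription factor XBP1, ATF6 is cut free from the membrane, and both proteins raise the transcription of chaperone and degradation genes, while PERK acts through eIF2alpha and ATF4. In the intestine this machinery is known to be heavily used by mucus-secreting goblet cells and by Paneth cells, and Xbp1 is needed for normal Paneth and goblet cells.

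XBP1 and ATF6 are known to act through short promoter sequences, the ER stress response elements, and the promoters of the chaperone genes among the 35 are shown because these elements were first described in several of them. RefSeq promoters of the GRCm38.p6 assembly, running from 250 bases before to 50 bases after the annotated start, matched 28 of the 35 genes (30 promoters). No promoter sequence was at hand for Hyou1, Manf, Ern2, Atf6, Derl1, Sec61a1 and Ssr2. The ERSE was searched for as CCAAT and CCACG separated by 9 bases, on both strands. It was found in 9 of the 28 genes (32.1%), against 0.137% of 27025 genes and 0.119% of 32851 promoters in the same table. Since the element was defined from genes of this kind, the match is a description and no independent result. The matches follow, 5′ to 3′ in the orientation of the element, with its fixed bases in capitals, the distance of the end nearer the window's 5′ edge from the annotated start, and the genomic strand.
Hspa5, 65 bases before the start, chr2:34772025-34772043, plus strand: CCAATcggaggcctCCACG
Hsp90b1, 212 bases before, chr10:86705638-86705656, minus strand: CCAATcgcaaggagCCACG
Hsp90b1, 107 bases before, chr10:86705533-86705551, plus strand: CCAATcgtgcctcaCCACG
Calr, 162 bases before, chr8:84847075-84847093, plus strand: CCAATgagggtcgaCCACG
Canx, 145 bases before, chr11:50325800-50325818, minus strand: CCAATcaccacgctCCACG
Dnajc3, 105 bases before, chr14:118937827-118937845, plus strand: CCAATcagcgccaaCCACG
Creld2, 126 bases before, chr15:88819520-88819538, minus strand: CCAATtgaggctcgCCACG
Pdia6, 98 bases before, chr12:17266491-17266509, plus strand: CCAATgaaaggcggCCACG
Syvn1, 44 bases before, chr19:6046532-6046550, plus strand: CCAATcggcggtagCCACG
Derl3, 156 bases before, chr10:75893242-75893260, minus strand: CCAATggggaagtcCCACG

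The related ERSE-II was searched for as ATTGG and CCACG separated by 1 base, and 2 of the 28 genes (7.14%) held it, against 0.0444% of all genes. They were the co-chaperone gene Dnajb11, where it begins 7 bases after the annotated start, and Herpud1, a membrane component of ER-associated degradation, where it begins 52 bases before it.
Dnajb11, chr16:22857852-22857862, plus strand: ATTGGcCCACG
Herpud1, chr8:94386377-94386387, plus strand: ATTGGgCCACG

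The core of the unfolded protein response element bound by XBP1 and ATF6, TGACGTGG, was present in 1 of the 28 genes (3.57%), Sec24d, against 0.714% of all genes. It begins 26 bases before the start. The 150 bases before the Hspa5 start (chr2:34771940-34772089, plus strand) and the 60 bases before the Sec24d start (chr3:123267436-123267495, plus strand) are shown with the ERSE and the core in capitals, as the context of the best known chaperone promoter and of the gene that had the largest difference between genotypes among the 35.
Hspa5: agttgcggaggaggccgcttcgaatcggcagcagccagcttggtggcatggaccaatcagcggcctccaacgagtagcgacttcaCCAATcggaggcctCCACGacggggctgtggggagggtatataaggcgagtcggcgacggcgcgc
Sec24d: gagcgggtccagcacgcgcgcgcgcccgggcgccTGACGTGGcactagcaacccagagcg

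The half-sites alone were much more common: CCAAT was in 24 of the 28 genes (85.7%) and in 41.1% of all genes, and CCACG was likewise in 24 (85.7%) and in 35.5% of all genes. Among 101 other genes of the pathway with a promoter sequence, the ERSE was in 1 (Ero1b), the ERSE-II in 1 (Krtcap2) and the TGACGTGG core in 9. No factor's binding was measured, and a match in this window does not say that a site is used.

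**Figure D1:**
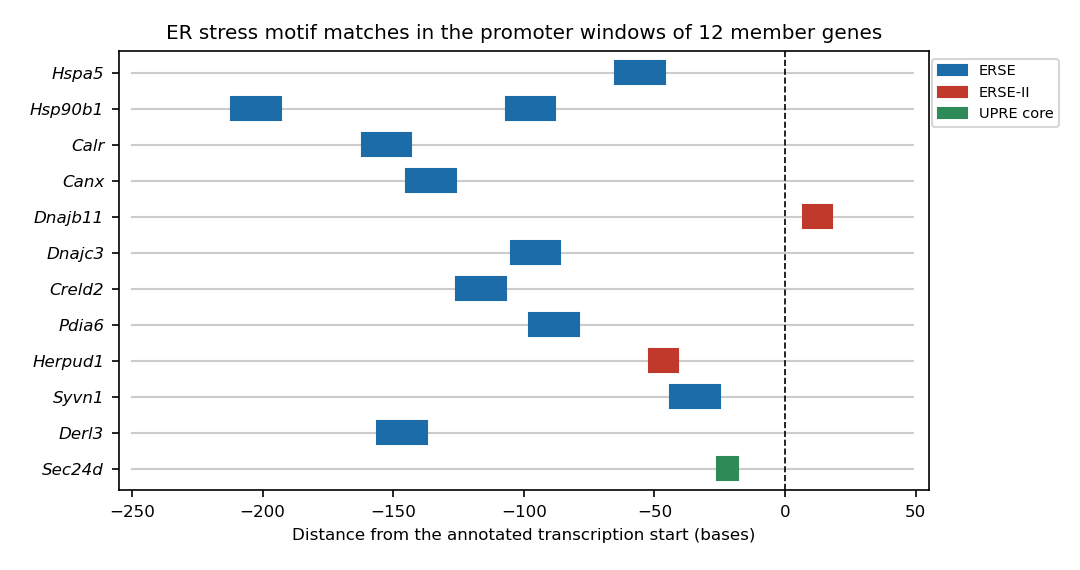
Position of each ERSE, ERSE-II and TGACGTGG core match (coloured boxes) in the promoter windows of 12 of the 35 genes, as distance in bases from the annotated start (dashed line). All but the Dnajb11 match lie before the start, from 212 to 26 bases upstream at their first base.

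The comparison of genotypes asks which genes depend on Gata6, a zinc finger transcription factor of the intestine, in adenoma cells that lack Apc. The chosen Gata6 probe set read 8.89 and 8.61 log2 units in the Apc null arrays (batch A, then B). It read 9.37 and 9.40 in those labelled Gata6 null/Apc null, so the targeted gene was not lower where the label says it was deleted. The difference was 0.64 (limma, adjusted p = 0.418, and 0.0392 with the batch as a block). A second Gata6 probe set was also higher, at 8.83 and 8.65 in the Apc null arrays against 9.11 and 9.21 (difference 0.42). The Apc probe set read 8.14 to 8.35 on the 4 arrays. Whether either Gata6 probe set lies inside the deleted exons is not given in the sources used here, and every direction in the text rests on the labels. All 9 intestinal epithelial markers were present, with Epcam between 11.29 and 11.53 log2 units. Markers of plasma cells, which carry the same ER machinery, were low: Jchain, the immunoglobulin joining chain, read at most 3.15, Pou2af1 at most 3.31 and Irf4 at most 4.35. Of the 5 measured plasma cell markers Prdm1 reached 8.27, and Prdm1 is also known in intestinal epithelium. The highest reading was 5.04 among 8 fibroblast markers, 4.80 among 5 endothelial markers and 7.56 (Cd68) among 7 immune markers, where Ptprc read at most 3.25. Arrays of 1 batch correlated at 0.978 to 0.979, arrays of 1 genotype at 0.975 to 0.976 and arrays sharing neither at 0.963 across probe sets.

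Between genotypes, none of the 35 ER genes passed the test in the fit of genotype alone, and Sec24d alone passed once the batch was a block. Most of its genes lay slightly below the Apc null level when the mean of the 2 arrays labelled Gata6 null/Apc null was taken, with a median difference of -0.14 log2 units against -0.02 over all 17097 genes. The largest differences among the 35 were those of Sec24d, a COPII cargo adaptor (-1.38), Xbp1 (-0.71), the sensor gene Ern2 (-0.60) and Edem1, which marks glycoproteins for degradation (-0.57). Of the 35 differences, 31 were smaller than 0.5 log2 units in size, and they ran from -1.38 to 0.18. The test was limma's moderated fit over 11874 genes with Benjamini-Hochberg adjustment and a threshold of 0.05. It called 0 of the 35 genes higher, where 0.522% of all genes tested were called, and 0 lower, where 0.126% were called. At an unadjusted p under 0.05 it had 1 of the 35 (Sec24d), against 7.97% of all genes. With the batch letter as a block, 1 gene was lower (Sec24d) and 0 higher, against 2.97% of all genes lower and 3.91% higher, so the members' share was close to or under the background. That fit had 8 of the 35 at an unadjusted p under 0.05, against 19.9%.

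The direction of these small differences was shared by more of the 35 genes than of all genes. In 27 of the 35 (77.1%) the array labelled Gata6 null/Apc null was the lower one in both batches, against 36.3% of genes tested, and in 2, Ern1 and Derl1, it was the higher one in both, against 27.1%. In 18 of the 35 (51.4%) both arrays labelled Gata6 null/Apc null lay below both Apc null arrays, against 17.3%, and in 0 they lay above both, against 14.7%. The median difference was -0.16 for batch A and -0.11 for batch B. Among genes with a mean of at least 9 log2 units, 18 of 21 members (85.7%) were lower in both batches against 36.2% of 2301 genes. When each array was centred on its median over the genes tested, the counts were 21 of 35 lower in both batches against 32.4% of genes, 0 higher in both, and 15 (42.9%) without overlap against 15.3%. These genes were measured on the same 4 arrays and are not independent of each other, so the counts carry no test.

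**Figure D2:**
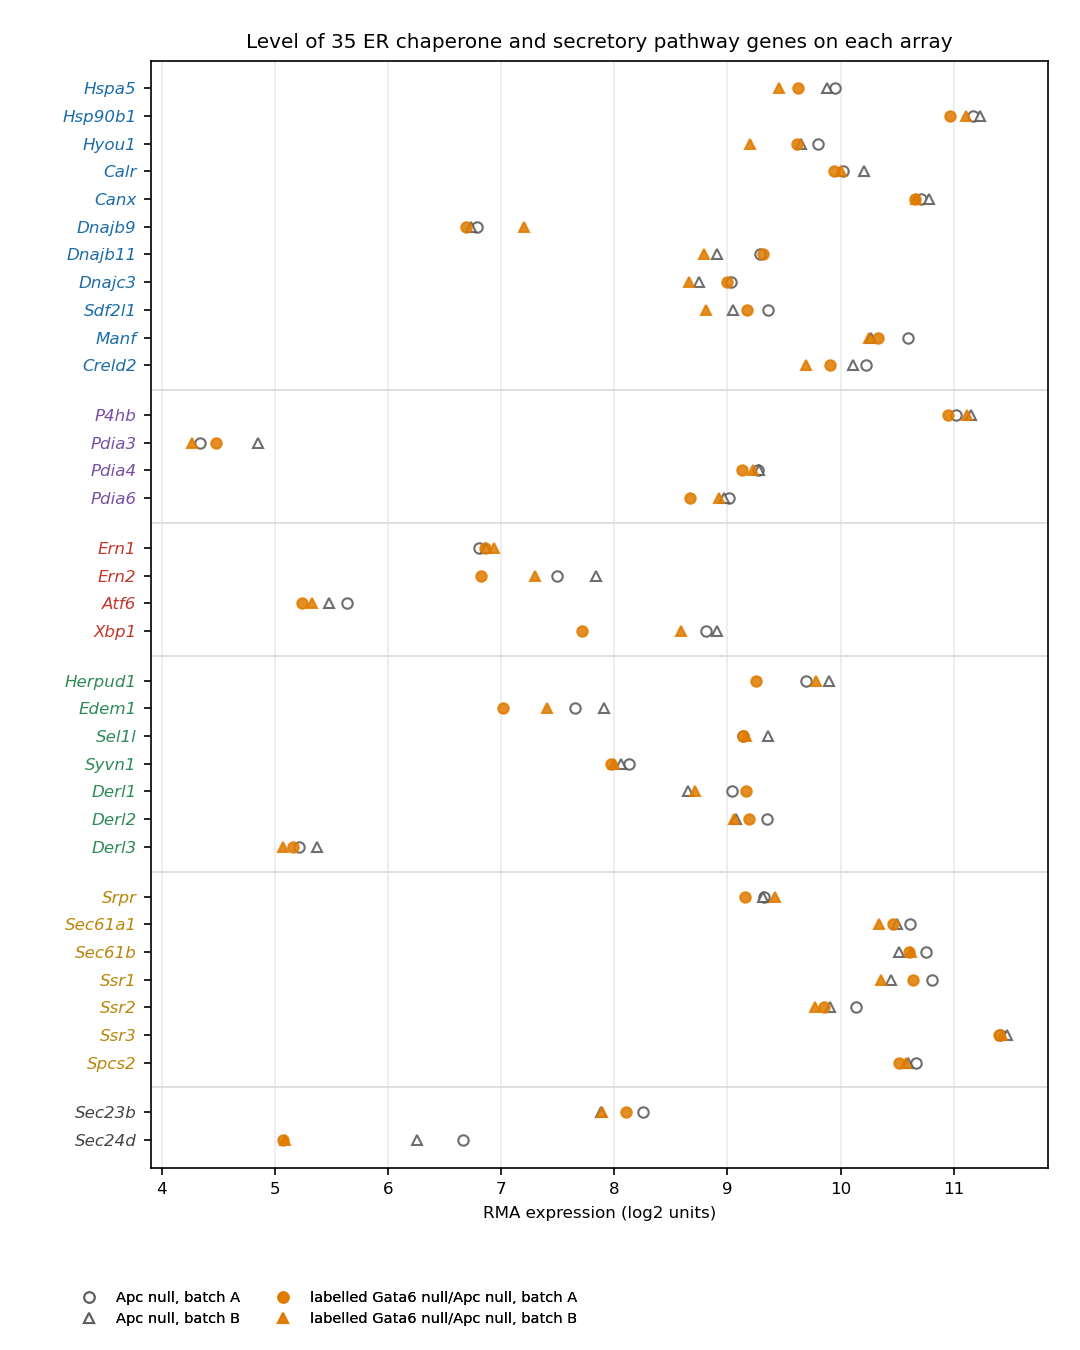
Expression of the 35 genes on each array, in log2 units of the deposited RMA values (x axis), by gene and role (y axis, roles separated by lines and colours). Open grey marks are Apc null and filled orange marks are labelled Gata6 null/Apc null, with circles for batch A and triangles for batch B. Both orange marks lie left of both grey ones by more than 1 log2 unit for Sec24d alone. For Xbp1 the batch A orange mark does so, but not the batch B one. Most genes have all 4 marks close together. Levels of different genes come from different probes and cannot be compared.

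The lumenal chaperones bind unfolded chains and hold them until they fold. Hspa5 encodes BiP, the ER Hsp70 that also keeps the stress sensors inactive, and it read 9.95 and 9.88 log2 units in the Apc null arrays (batch A, then B) and 9.62 and 9.46 on the arrays labelled Gata6 null/Apc null. The groups did not overlap, and the difference was -0.37 (SE 0.15, 95% interval -0.76 to 0.02), a 1.29-fold lower mean. It did not pass the test (adjusted p = 0.673, or 0.0819 under the block). A second Hspa5 probe set differed by -0.31. Creld2, the gene of an ER protein induced by stress, was at 10.22 and 10.11 against 9.91 and 9.70, again without overlap, and differed by -0.36 (SE 0.15, adjusted p = 0.685, or 0.073 under the block).

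Hsp90b1, the gene of the ER Hsp90 protein GRP94, was at 11.17 and 11.23 against 10.97 and 11.11, a difference of -0.16 with no overlap. Canx, the membrane-bound lectin chaperone calnexin, was at 10.71 and 10.78 against 10.66 and 10.66 and differed by -0.08. Its lumenal relative calreticulin (Calr) differed by -0.14, and Hyou1, which recharges BiP with ATP, by -0.32. Both had all values of the arrays labelled Gata6 null/Apc null below the Apc null values. The remaining chaperone genes overlapped between groups: Dnajb11 (-0.05), Dnajc3 (-0.06), Sdf2l1 (-0.22) and Manf (-0.14) had lower means, and Dnajb9, the BiP co-chaperone ERdj4, had a higher one (0.18). The Dnajb9 difference was -0.10 for batch A and 0.47 for batch B, and the batch B array labelled Gata6 null/Apc null was the high one. Over the 11 chaperone genes the median difference was -0.14, and 6 had no overlap, all lower, where 17.3% of all genes tested lay lower without overlap and 14.7% higher.

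Disulfide isomerases make and reshuffle the cysteine bonds of secreted proteins. P4hb, the founding member PDI, read 11.02 and 11.15 in the Apc null arrays and 10.95 and 11.12 on the arrays labelled Gata6 null/Apc null, which overlapped. Pdia4 read 9.27 and 9.28 against 9.13 and 9.23 and differed by -0.09 without overlap. Pdia6, which helps to switch off IRE1 and PERK, differed by -0.20, most of it in batch A (-0.35) and little in batch B (-0.05). Pdia3 has a single named probe set here, which lay between 4.27 and 4.85 log2 units, near the filter level of 4.45. Whether that probe set reports the level of the gene was not tested. The Pdia3 differences had opposite signs in the batches. None of the 4 passed in either genotype fit.

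Stress sensors sit in the ER membrane, and XBP1 carries the IRE1 signal to the nucleus. Xbp1 read 8.81 and 8.91 in the Apc null arrays, and 7.71 for batch A and 8.59 for batch B of the arrays labelled Gata6 null/Apc null. The Apc null arrays were close together, and the batch A array labelled Gata6 null/Apc null was the lowest by 0.88 log2 units. The difference was -0.71 (SE 0.34, 95% interval -1.60 to 0.18), a 1.63-fold lower mean, at -1.10 for batch A and -0.32 for batch B. It did not pass (adjusted p = 0.815, or 0.113 under the block). The other 3 Xbp1 probe sets gave -0.66 to -0.75. The probe sets were read as total Xbp1 signal, and splicing of the mRNA was not measured.

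Ern2 encodes IRE1beta, the form of IRE1 found in mucosal epithelium and mainly in goblet cells. It was at 7.49 and 7.83 against 6.82 and 7.30, with no overlap and a difference of -0.60 (SE 0.29, 95% interval -1.37 to 0.16, adjusted p = 0.818, or 0.103 under the block). The widely expressed IRE1alpha gene, Ern1, was at 6.80 and 6.86 against 6.85 and 6.93, with overlap and a difference of 0.06, which was -0.07 when all probe sets of the gene were averaged. The paralogs thus had differences of opposite sign with the chosen probe sets, but whether they differ from each other was not tested. Atf6, the membrane-tethered transcription factor, read 5.63 and 5.48 against 5.24 and 5.33 and differed by -0.27 without overlap. A second Atf6 probe set differed by -0.35, and both probe sets were dim, where RMA compresses values. With the arrays centred on their medians and the batch as a block, an alternative added after seeing the data, Xbp1 (adjusted p = 0.002), Ern2 (0.0193), Edem1 (0.0232) and Sec24d (6.5e-05) were lower, against 6.59% of all genes lower and 6.65% higher. Over all alternatives the adjusted p of the first 3 ran up to 1, and the Xbp1 difference ran from -1.15 without the batch B array labelled Gata6 null/Apc null to -0.27 without the batch A one.

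ER-associated degradation removes chains that fail to fold. Edem1, a mannosidase-like gene induced by XBP1, read 7.65 and 7.91 in the Apc null arrays and 7.02 and 7.40 on the arrays labelled Gata6 null/Apc null. Its groups did not overlap, the difference was -0.57 (SE 0.27, adjusted p = 0.79, or 0.11 under the block), and a second probe set gave -0.47. Herpud1, which bridges the ubiquitin ligase complex, was at 9.70 and 9.90 against 9.25 and 9.79 and differed by -0.28, at -0.45 for batch A and -0.11 for batch B. Sel1l, the partner of the ubiquitin ligase HRD1, was at 9.14 and 9.36 against 9.13 and 9.17, a difference of -0.10 made up of almost nothing for batch A and -0.19 for batch B. The HRD1 gene Syvn1 (-0.11) and Derl2, a derlin of the retrotranslocation machinery (-0.09), had small negative differences, Derl1 had a small positive one (0.09), and the dim Derl3, at 5.07 to 5.37 log2 units over the arrays, differed by -0.17. None of the 7 passed in either genotype fit.

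Translocation genes bring nascent chains to the ER and across its membrane. Ssr3, a subunit of the translocon-associated TRAP complex, read 11.41 and 11.47 against 11.40 and 11.43, a difference of -0.02 (SE 0.08, 95% interval -0.23 to 0.18). Sec61b, a subunit of the channel itself, was at 10.76 and 10.52 against 10.61 and 10.62 and also differed by -0.02. Sec61a1, the pore subunit, differed by -0.16, and Ssr2, another TRAP subunit, by -0.21, both without overlap. Srpr, a receptor subunit for the signal recognition particle, and Spcs2, of the signal peptidase, differed by -0.03 and -0.08. The median over the 7 genes was -0.08 and none passed in either genotype fit.

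COPII coats bud vesicles from the ER, with SEC23 and SEC24 proteins forming the inner layer and SEC24 choosing the cargo. Sec24d read 6.66 for batch A and 6.26 for batch B of the Apc null arrays, and 5.07 and 5.08 on the arrays labelled Gata6 null/Apc null. The groups were separated by more than 1 log2 unit. The difference was -1.38 (SE 0.23, 95% interval -1.99 to -0.78), a 2.61-fold lower mean, at -1.59 for batch A and -1.17 for batch B. With the genotype alone its unadjusted p was 0.0022 and its adjusted p 0.131, and with the batch as a block the adjusted p was 0.0137. Over the alternatives listed in the closing section its adjusted p ran from 6.5e-05 to 0.426. It rests on a single probe set, which in the lower group lay near the filter level of 4.45, where RMA compresses values. Sec23b was at 8.25 and 7.88 against 8.10 and 7.89, with overlap and a difference of -0.07. The other SEC24 genes differed much less: Sec24a by -0.37, Sec24b by -0.07 and Sec24c by 0.02, and none of these passed. These 3 were named after their values were seen.

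**Figure D3:**
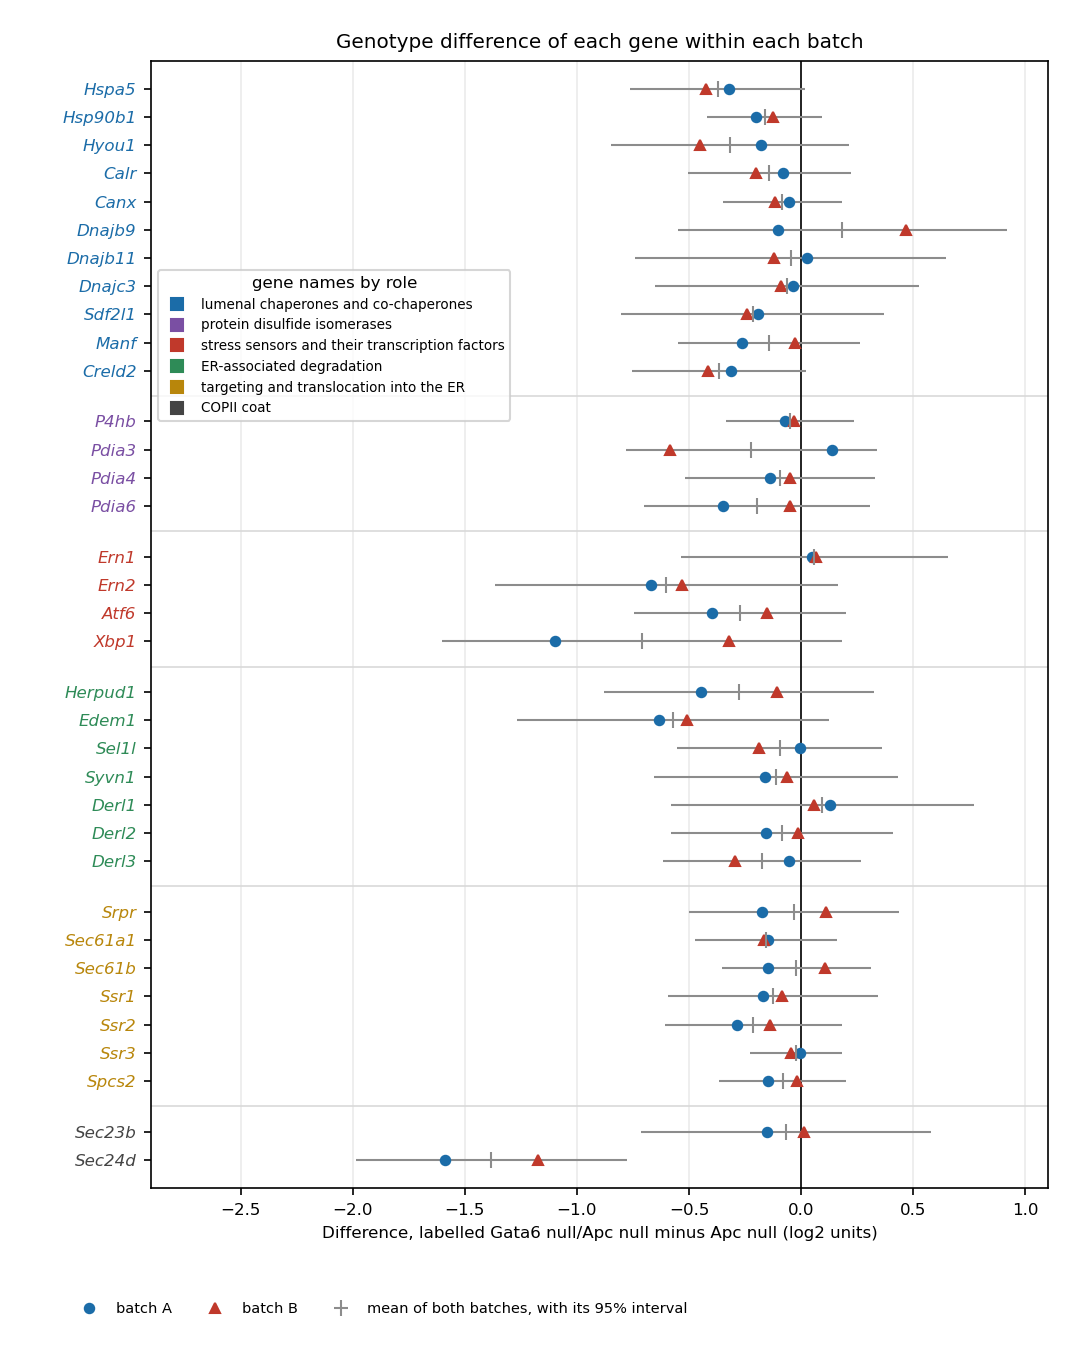
Difference in log2 units between the array labelled Gata6 null/Apc null and the Apc null array of batch A (circles) and of batch B (triangles) for each of the 35 genes, with the mean of both batches (tick) and its 95% interval from the moderated fit (bar). Most marks lie left of 0 by less than 0.5, the Xbp1 marks are far apart (-1.10 and -0.32), and the Sec24d interval is the only one that leaves out 0.

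Genes with an ERSE in the promoter window were examined together, since XBP1 and ATF6 are known to act on that element. All 9 had a lower value in both batches on arrays labelled Gata6 null/Apc null, and 8 had no overlap between groups, where 36.3% and 17.3% of all genes tested did so. Their differences ran from -0.37 (Hspa5) to -0.06 (Dnajc3), with a median of -0.16. Of the 19 other members with a promoter sequence, 12 were lower in both batches and 5 had no overlap, with a median of -0.09. These 19 include Dnajb11 and Herpud1, which hold an ERSE-II, and Sec24d, which holds the TGACGTGG core. Of the 7 members without a promoter sequence, 6 were lower in both batches and 5 had no overlap, with a median of -0.21. In batch A the differences of Dnajc3 (-0.04), Derl3 (-0.05), Canx (-0.06) and Calr (-0.08) were small. The other Dnajc3 probe sets differed between genotypes by -0.23 to 0.06. These counts are of the values as deposited, and the split was not repeated with the arrays centred. The split was made after the values were seen and carries no test.

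Several genes of the goblet marker list and of the Paneth and deep crypt secretory list were also lower on arrays labelled Gata6 null/Apc null. Goblet and Paneth cells are known to depend on this machinery. Whether Paneth cells were present in these colon organoids was not tested. Of 10 goblet markers, 9 were measured and 7 tested. Spink4 fell by 4.30 log2 units (adjusted p = 0.0314), and with the batch as a block Spink4, Agr2, Reg4 and Atoh1 were lower. Over all genes tested, 0.126% were called lower with genotype alone and 2.97% with the block. Of the 9 goblet markers, 8 had a lower mean and 1 a higher one (0.38). Agr2, which is itself a disulfide isomerase of goblet cells, read 8.89 and 9.15 in the Apc null arrays and 6.84 and 7.58 in the others (difference -1.81, adjusted p = 0.153, or 0.00349 under the block). The summed linear level of the 9 goblet markers was 5572 and 6045 in the Apc null arrays and 2175 and 2958 on the arrays labelled Gata6 null/Apc null. Much of the sum on each array was Tff3, a goblet cell peptide. Tff3 remained bright in all 4 arrays, at 11.42 and 11.26 against 10.30 and 10.93. Of 9 Paneth and deep crypt secretory markers, 6 were measured and 4 tested. Lyz2 fell by 4.41 (adjusted p = 0.0243), Mmp7 was lower with the block as well, and the summed levels of the 6 were 2486 and 4210 against 835 and 1266. Much of that sum was Lyz2 in the Apc null arrays, but little of it on the arrays labelled Gata6 null/Apc null. Without Lyz2 the sums were 1175 and 1953 against 744 and 1194, and the median difference over the 6 genes was -0.43. In bulk samples fewer cells of a type and less RNA per cell cannot be told apart, and the part of these markers in the ER gene differences was not tested. Among the other lists, 2 of 5 tested colonocyte markers (Car1 and Fabp2) and 1 of 9 epithelial markers (Cdx2) were lower with the block. Of 2 tuft cell markers, 1 (Avil) was higher. The block called 2.97% of all genes tested lower and 3.91% higher. No enteroendocrine (7 tested), plasma cell (2), fibroblast (2), immune (3) or endothelial (2) marker was called in either genotype fit. Without Ern2 and Derl3, which are also goblet and plasma cell genes, the median member difference was -0.13.

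The batch comparison asked how stable these genes were between the batches, with genotype as a second term. Over the 35 genes the median of batch B minus batch A was -0.01 log2 units, against -0.07 over all genes. Passing genes numbered 2 lower in batch B and 0 higher, against 9.12% and 7.53% of all genes. With the arrays centred they were 2 lower and 2 higher, and the 9.12% and 7.53% are not the shares of that fit. At an unadjusted p under 0.05 there were 8 of 35, against 33.6% of all genes. Dnajb11, the BiP co-chaperone ERdj3, read 9.29 and 9.31 in batch A and 8.91 and 8.79 in batch B and fell by 0.45 (SE 0.11, adjusted p = 0.0461). Ssr1, a TRAP subunit, read 10.80 and 10.64 in batch A and 10.44 and 10.36 in batch B and fell by 0.32 (SE 0.075, adjusted p = 0.0405). Neither showed overlap between batches, and both calls were lost with limma run without a trend (adjusted p = 0.106 and 0.181). Derl1 was just outside (-0.42, adjusted p = 0.0572). Xbp1 (0.49) and Ern2 (0.41) had the opposite sign in batch B minus batch A, and neither passed. Xbp1 differed by 0.10 between the Apc null arrays and by 0.88 between the arrays labelled Gata6 null/Apc null.

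Other genes of the pathway were measured for comparison, from lists of 125 genes of which 111 had a probe set and all 111 were tested. In the fit of genotype alone 0 of the 111 were called higher and 0 lower, with 8 at an unadjusted p under 0.05. With the batch as a block, 1 was higher and 6 were lower, against 3.91% and 2.97% of all genes. Their median difference was -0.08.

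The PERK and ATF4 arm is the branch that slows translation and switches on amino acid genes. With the batch as a block, 3 of its 13 tested genes were lower and 0 higher, against 2.97% and 3.91% of all genes. The mean was lower in all 13, against 6632 of 11874 genes tested, with a median of -0.34. In 11 of the 13 the value was lower in both batches, against 36.3% of genes tested. Trib3, a pseudokinase induced by ATF4, read 6.96 and 7.90 in the Apc null arrays and 5.25 and 6.20 in those labelled Gata6 null/Apc null, and differed by -1.70 (SE 0.48, adjusted p = 0.387, or 0.00542 under the block). Its values rose from batch A to batch B by about the same amount in both genotypes, and the groups did not overlap. Asns, asparagine synthetase, was at 10.14 and 10.27 against 9.09 and 9.45 and differed by -0.93 (SE 0.19, adjusted p = 0.195, or 0.00606 under the block). The third was Chac1, a glutathione-degrading enzyme, at -1.52 (adjusted p = 0.715, or 0.0227 under the block). Atf4 itself differed by -0.34 and the PERK gene Eif2ak3 by -0.37, and neither passed. Between batches, 5 of the 13 were higher in batch B and 0 lower, against 7.53% and 9.12% of all genes. They were Ddit3 (1.02), Trib3 (0.95), Chac1 (1.27), Ddit4 (1.15) and Nupr1 (0.73). Chac1, Atf4, Eif2ak3 and the batch genes were named after their values were seen.

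Among 13 other oxidative folding enzymes, 1 was lower with the block. Qsox1, a sulfhydryl oxidase, was at 8.28 and 9.44 against 7.08 and 8.71 and differed by -0.96 (adjusted p = 0.024 with the block), while it was higher in batch B by 1.40 (adjusted p = 0.0115). Ero1a, which reoxidises PDI, differed by -1.23 between genotypes (0.0584 with the block) and was higher in batch B by 2.39 (adjusted p = 0.0115). For both genes the difference between batches was larger than that between genotypes.

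The oligosaccharyltransferase, which attaches glycans to entering chains, had 1 of 11 subunits lower with the block. Krtcap2 was at 10.96 and 10.96 against 10.48 and 10.61 (difference -0.41, adjusted p = 0.329, or 0.0287 with batch as a block), and the catalytic-complex subunit Rpn1 differed by -0.24. N-glycan quality control had 0 of 12 in either direction, and the smallest p with the block belonged to Mogs (-0.53) and the cargo receptor Lman1 (-0.31). Other coat and recycling genes had 0 of 20, led by Copz1 (-0.33) and Preb (-0.31). Of 13 other targeting and translocation genes 1 was higher with the block, Sec62 (1.50, with an adjusted p of 0.075 that was 0.00223 under the block). Next came Srp14 (0.48), which did not pass. The Sec62 probe set can match shared sequence, and the gene's other probe set past the filter differed by 0.03. The mean over all Sec62 probe sets gave 0.42, most of it from the chosen one. Sec62 was also the 1 gene called among 10 other degradation genes, where Aup1 came next (-0.11).

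Among 11 other ER stress transcription factors and proteases 1 was lower with the block. Creb3l1, which encodes the membrane-tethered factor OASIS known in goblet cell maturation, read 6.47 and 6.41 in the Apc null arrays and 4.91 and 5.21 in the others. It differed by -1.38 without overlap (SE 0.22, adjusted p = 0.113, or 0.0127 under the block). Its lower values, like those of Sec24d, lay near the filter level, where RMA compresses values. Bhlha15, the secretory cell factor MIST1, was dim, at 4.87 and 4.95 against 4.35 and 4.23 (-0.62, and 0.0677 with the block). The 9 cytosolic and mitochondrial heat shock genes, which belong to another stress response, had 0 calls by genotype in either fit, with a median of 0.06. Hspb1 (1.57) and Dnaja1 (0.30) had the smallest p with the block. Between batches 5 of the 9 were lower in batch B and 0 higher, against 9.12% and 7.53% of all genes: Hsp90aa1 (-0.44), Hsph1 (-0.66), Dnaja1 (-0.54), Dnajb1 (-0.47) and Hspe1 (-0.28), named after their values were seen.

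**Figure D4:**
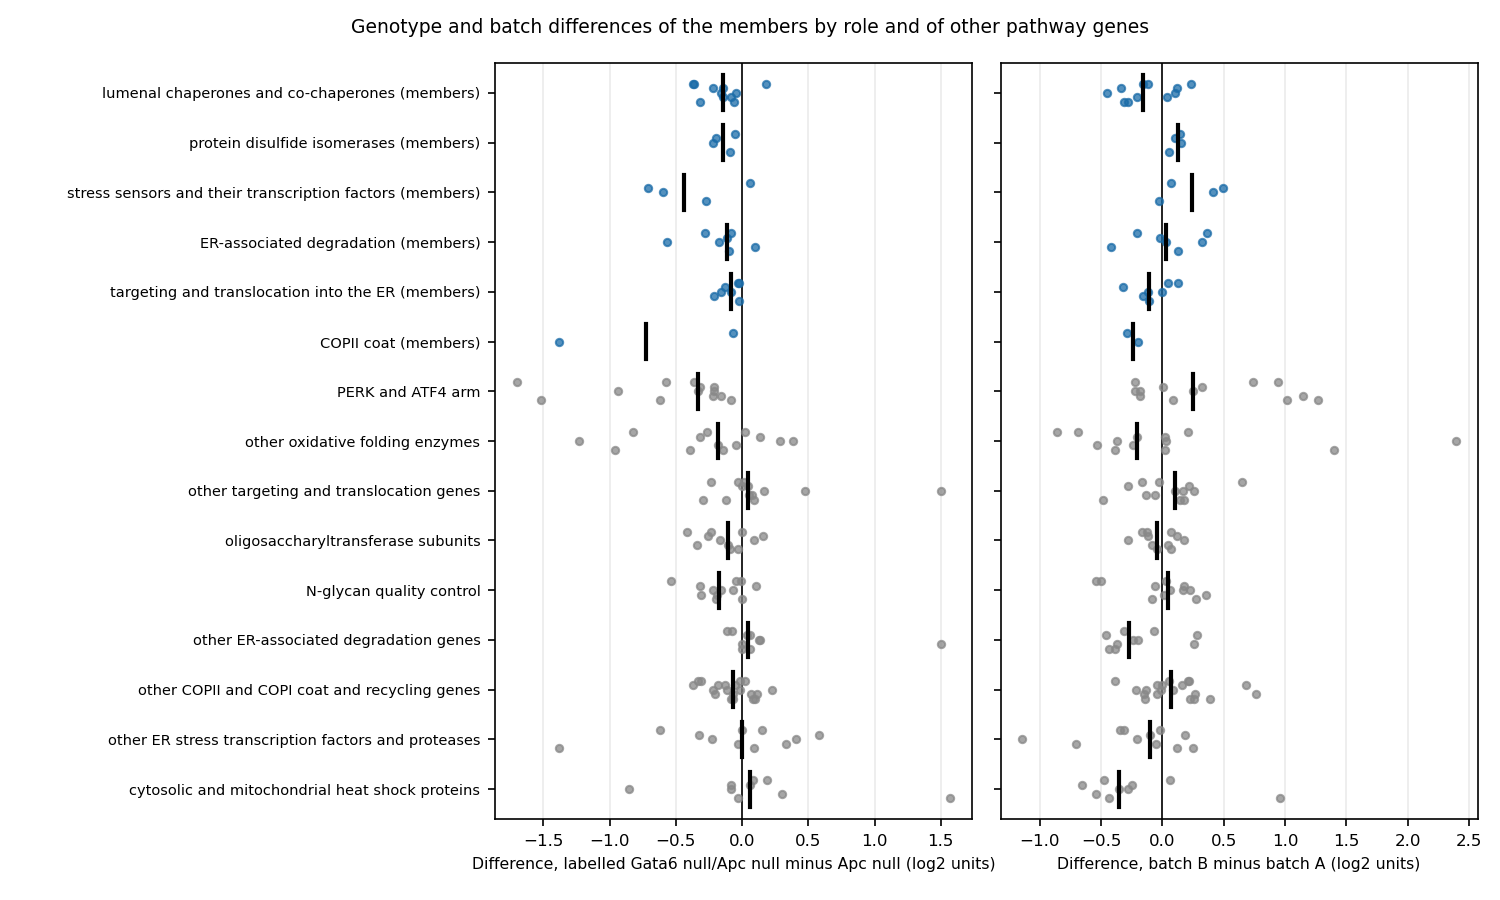
Differences in log2 units between genotypes (left) and between batches (right) for the 35 genes by role (blue points) and for the other pathway lists (grey points), with the median of each list as a black line. The PERK and ATF4 arm lies to the left of 0 for all 13 genes on the genotype axis, against 6632 of 11874 genes tested. On the batch axis 5 of its genes were called higher. The members by role stay mostly within 0.5 of 0 on both axes.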

How the data were processed

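Per the labels' protocols, amplified and biotin-labelled cDNA of each sample was hybridised to 1 Affymetrix array. The authors deposited log2 expression per probe set, summarised by RMA with affy, according to the submitters' processing notes, which name no version here. RMA normalises between arrays and compresses low values. The medians of the deposited arrays still ran from 4.91 to 5.04, a spread close to the size of the median member difference. Both ends were Apc null arrays (batch A, then B), and both arrays labelled Gata6 null/Apc null were at 4.96. Centring each array was among the alternatives, and with it the median member difference was -0.13. Precision is limited by the small number of arrays, and detection calls were not used.

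Of 45141 probe sets, 104 were controls and not used. Gene names came from the annotation of the platform (28898 probe sets with 1 gene, 551 with several, from which no gene was named, and 15588 with none), and symbols were matched by Entrez identifier for 28689 probe sets against the RefSeq table of GRCm38.p6, with 0 changed. Each of 17097 genes was represented by its brightest probe set, and 11874 genes whose mean reached 4.45, the 40th percentile over probe sets, were tested. The 35 members had 73 probe sets, 21 had more than 1, and 31 of 36 further probe sets past the filter shared the sign of the chosen one. The chosen probe set of 12 members can match sequence shared between transcripts, of the same gene or of other genes. No per-sample column was left unused (0).

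Differences were tested with limma 3.58.1 in R 4.3.3 (lmFit, eBayes with a trend, two-sided, Benjamini-Hochberg over the 11874 genes, threshold 0.05). The genotype fit had 2 residual degrees of freedom, to which moderation added 2.83. The batch letter, shared by 1 array of each genotype, pairs the arrays by its label, and the differences between batches in the 2 genotypes correlated at 0.675 across genes. The fit with that block, which also gave the batch comparison, had 1 residual degree of freedom, to which moderation added 4.99. The code was tested on simulated data.

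Members and gene lists (other pathway genes and cell type markers) were chosen with earlier results of these data known. Values on every array are given for members past the threshold in any of the 3 fits, for the sensors and Xbp1, and for the 2 brightest members of each role. Of the other pathway lists, up to 2 members with the smallest p are named, and genes named otherwise are marked. Alternatives were the block, the filter, the choice of probe set, centring of the arrays, moderation without a trend, each array left out, and the median without Ern2 and Derl3.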

Additional observations from a re-analysis of the deposited data

How the results depend on the processing

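With 2 arrays a group, single small differences cannot be separated from noise. Probe sets with dim readings, such as those of Pdia3 and Derl3, have compressed values. The median member difference between genotypes was negative in each alternative run, from -0.10 to -0.21 with 1 array left out and from -0.13 to -0.19 in the others. In the genotype fit 0 members were higher in each alternative, and 0 lower in all but the fits with the batch block. The replicate block gave 1 lower (Sec24d). The block with arrays centred, added after seeing the data, gave 4, while calls over all genes also grew from 353 to 783 lower. In the batch comparison, 2 members were higher in batch B with arrays centred (Xbp1, adjusted p = 0.0194, and Herpud1, 0.0353), against 0 otherwise. The members lower in batch B numbered 0 with batch as the single term, 0 with limma without a trend, 1 with the mean of all probe sets and 3 with the filter at the 60th percentile, which added Derl1 (0.0499). With arrays centred Ssr1 was at 0.0516 and Derl1 at 0.0227. Leaving out an array leaves the batch fit no residual degrees of freedom, so its medians, from -0.07 to 0.02, have no test. Sec62 moved from 1.50 to 0.42 with the mean of all probe sets, and it was 1 of 16 values of single genes that moved beyond their spread. Of the 35 member differences between genotypes, 20 kept their sign in every alternative run. The other 15, none of them called and the largest that of Pdia3 (-0.22), took the other sign in at least 1, 14 of them with 1 array left out and 3 (Ern1, Derl2 and Ssr3) with the mean of all probe sets. The cause of each change was not tested.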
